A study of Mus musculus with 4 samples.

Results

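The genes described here were 32 genes of the Notch pathway. They comprise the 4 Notch receptors, 5 ligands of the Delta and Jagged families, 8 Hes and Hey genes, 3 Fringe glycosyltransferases, 4 genes of the nuclear complex and 8 other modifiers. Members were named from the pathway, and the rule uses no measured value. The list was, however, chosen with earlier results of these data known. They are 32 of the 22208 protein-coding genes of the GENCODE annotation of the mouse genome build mm9, and each was given a locus made of its gene body and 5 kb upstream. RYBP occupancy at these loci was read from chromatin immunoprecipitation followed by sequencing (ChIP-seq).

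Notch signalling passes between touching cells. A Delta or Jagged ligand on a cell binds a Notch receptor on its neighbour, ADAM proteases and gamma-secretase cut the receptor, and the freed intracellular part joins the DNA-binding protein RBPJ and a Mastermind coactivator in the nucleus. The Hes and Hey genes are the best known targets and encode basic helix-loop-helix repressors. In mesoderm the pathway is known for somite segmentation, for arterial fate and for the emergence of blood stem cells from endothelium. RYBP is a subunit of variant Polycomb repressive complexes 1, which modify histone H2A and are found mostly at CpG-rich gene starts, where Polycomb proteins often mark developmental regulators in broad domains.

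The cells were FLK1+ mesoderm from wild-type mouse embryonic stem (ES) cells differentiated as embryoid bodies. Their strain was C57Bl/6 X Sv129 and they were labelled day 3.75. The study places the onset of blood specification around this stage. The series text adds that the cells were PDGFRa-. RYBP occupancy was used in the study to ask which loci this Polycomb subunit shares with the transcription factor SCL. There were 2 RYBP ChIP samples, stated to come from separate differentiations of wild-type cells, and 2 input samples that were not analysed here. There was no treatment, no mutant and no second condition, so every comparison below is between genes or between replicates and carries no test. The FLK1+ identity could not be checked with markers, because peaks do not measure expression.

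The deposited files give peaks and no reads, so no depth could be computed from them. Replicate 1 held 14794 peaks and replicate 2 held 18154, or 1.23 times as many. In the supplement of the study it is replicate 1 that has more mapped reads, in ChIP and in input, so the deeper library was the one with fewer peaks. The authors' merged list is the union of both and holds 22409 regions, of which 44.2% contained a peak of each replicate. Below, "both replicates" means that a merged region was touched by at least 1 bp of a peak of each. Fold enrichment is the authors' linear ratio of ChIP signal over local background in a peak, and a gene's value is its highest peak.

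Some of the promoters are shown first, because they carry the letters the pathway is known by. RBPJ binds a core written TGGGAA, here sought on both strands in the 250 bases before RefSeq start sites. The sequences are RefSeq promoters of GRCm38.p6 that were found letter for letter in mm9, and the mm9 positions are given. The table held 24 of the 32 members. Hes1, Hes3, Hey1, Heyl, Mfng, Mib1, Dtx3 and Dtx4 were not in it, so their promoters were not searched. The promoters of 3 Hes and Hey genes and of Lunatic fringe (Lfng) are printed 5′ to 3′ with the core, or TTCCCA where it lies on the other strand, in capitals.
Hes5: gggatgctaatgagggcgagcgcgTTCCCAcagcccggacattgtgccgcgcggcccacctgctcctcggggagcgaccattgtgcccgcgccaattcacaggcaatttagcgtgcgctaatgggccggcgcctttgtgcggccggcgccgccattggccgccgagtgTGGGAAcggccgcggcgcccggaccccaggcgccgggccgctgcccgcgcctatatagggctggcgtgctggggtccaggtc
Hes7: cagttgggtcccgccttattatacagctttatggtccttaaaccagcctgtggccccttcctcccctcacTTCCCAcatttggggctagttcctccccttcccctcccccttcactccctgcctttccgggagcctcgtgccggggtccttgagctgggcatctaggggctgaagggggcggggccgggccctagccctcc
Hey2: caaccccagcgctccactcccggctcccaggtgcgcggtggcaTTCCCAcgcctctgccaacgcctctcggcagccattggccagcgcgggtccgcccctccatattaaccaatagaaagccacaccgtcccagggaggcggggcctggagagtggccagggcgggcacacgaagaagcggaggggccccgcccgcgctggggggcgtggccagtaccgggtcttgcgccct
Lfng: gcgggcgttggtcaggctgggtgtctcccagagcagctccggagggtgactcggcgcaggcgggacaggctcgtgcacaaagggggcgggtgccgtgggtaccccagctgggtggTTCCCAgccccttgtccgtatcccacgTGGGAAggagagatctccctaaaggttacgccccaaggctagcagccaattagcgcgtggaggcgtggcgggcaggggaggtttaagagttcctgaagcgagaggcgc

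Hes5 spans chr4:154334782-154335031 on the plus strand, and its cores begin 226 and 82 bases before the start, on opposite strands and pointing away from each other. Hes7 spans chr11:68933705-68933905 on the plus strand, with a core that begins 180 bases before the RefSeq start. Hey2 spans chr10:30562608-30562839 on the minus strand, with a core 207 bases before the start. Lfng spans chr5:141083045-141083294 on the plus strand, with cores 135 and 108 bases before the start, and the second overlaps a CACGTG, the E-box type that Hes and Hey proteins are known to bind. A merged region of both replicates lay over all 250 bases at Hes5, Hey2 and Lfng and over 154 bases of the Hes7 window.

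TGGGAA was present in 8 of 24 members (33.3%), beside 24.1% of all 27025 genes of the table. Of the Hes and Hey genes that were searched, Hes6 held none. Besides the printed genes, the core was present in Rbpj, Maml2, Maml3 and Dtx2. A region of both replicates lay over all 250 bases at Rbpj and over 45 at Maml3. No region lay over the matched windows of Maml2 and Dtx2. Hes5, Lfng and Rbpj held 2 copies or more, 12.5% of members beside 3.20% of genes. CACGTG was present in 3 members (12.5%, all genes 6.86%), namely Lfng, Nrarp and Adam10. CACNAG, a further box bound by Hes proteins, was present in 12 members of 24, beside 40.1% of all genes. These are matches of short letters in a short window and not measured sites.

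CpG content ranged widely among the members. The following 3 promoters are shown with each CG in capitals because they cover the range from the richest to the poorest member windows that were matched.
Jag2: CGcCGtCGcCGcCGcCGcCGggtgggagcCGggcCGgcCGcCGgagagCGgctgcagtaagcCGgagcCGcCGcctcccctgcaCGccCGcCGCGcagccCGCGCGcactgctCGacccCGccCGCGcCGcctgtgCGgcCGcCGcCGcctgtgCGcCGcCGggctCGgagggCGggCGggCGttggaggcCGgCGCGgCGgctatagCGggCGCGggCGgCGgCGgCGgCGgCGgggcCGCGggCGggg
Notch4: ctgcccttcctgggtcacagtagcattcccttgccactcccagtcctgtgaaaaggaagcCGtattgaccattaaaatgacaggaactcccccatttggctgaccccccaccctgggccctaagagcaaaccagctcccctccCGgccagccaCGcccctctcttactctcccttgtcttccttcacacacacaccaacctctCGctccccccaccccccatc
Dtx2: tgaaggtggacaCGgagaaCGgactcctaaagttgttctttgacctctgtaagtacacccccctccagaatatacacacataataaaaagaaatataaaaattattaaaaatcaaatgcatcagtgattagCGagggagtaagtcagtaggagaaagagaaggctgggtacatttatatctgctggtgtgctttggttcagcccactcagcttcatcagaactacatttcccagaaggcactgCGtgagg

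Jag2, at chr12:114167707-114167956 on the minus strand, held 54 CpG in 250 bases and lay whole under a region of both replicates. Notch4, at chr17:34700990-34701212 on the plus strand, held 4 in the stretch shown and had no region over it or within 2.5 kb of its start. Dtx2, at chr5:136470420-136470669 on the plus strand, also held 4 and had no region over the window, and its only region was a replicate 2 peak that began 353 bp downstream of the reference start. The median window held 18 CpG over the 24 members and 6 over all genes. Of these 24 members, 16 had every matched window wholly or partly under a region of both replicates.

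RYBP regions lay at nearly all of the loci. A merged region overlapped the locus of 31 of 32 members (96.9%), beside 57.1% of all protein-coding genes. A region of both replicates was present at 26 members (81.2%), beside 38.9% of genes. Taken separately, replicate 1 had a peak at 25 members (all genes 43.9%) and replicate 2 at 31 (all genes 53.7%). Within 2.5 kb of an annotated start, 30 members had a merged region (93.8%, all genes 53.4%) and 23 had a region of both replicates (71.9%, all genes 36.8%). The width of this window does not depend on gene length, although a gene with several annotated starts has several windows. How far gene length enters the counts was not tested.

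Across all genes, occupancy went with CpG content at the start. A start was taken as CpG-rich when the 500 bp to either side of it held 3 or more CpG per 100 bp, which was so for 26 members (81.2%) and for 56.4% of all genes. Of all genes with a CpG-rich start, 83.7% had a merged region at the locus and 59.6% had a region of both replicates. The 26 CpG-rich members had a merged region in 26 cases and a region of both replicates in 22 (84.6%). At the start itself, 20 of the 26 had a region of both replicates (76.9%), beside 58.0% of CpG-rich genes. The part of CpG content in these counts was not tested further.

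**Figure D1:**
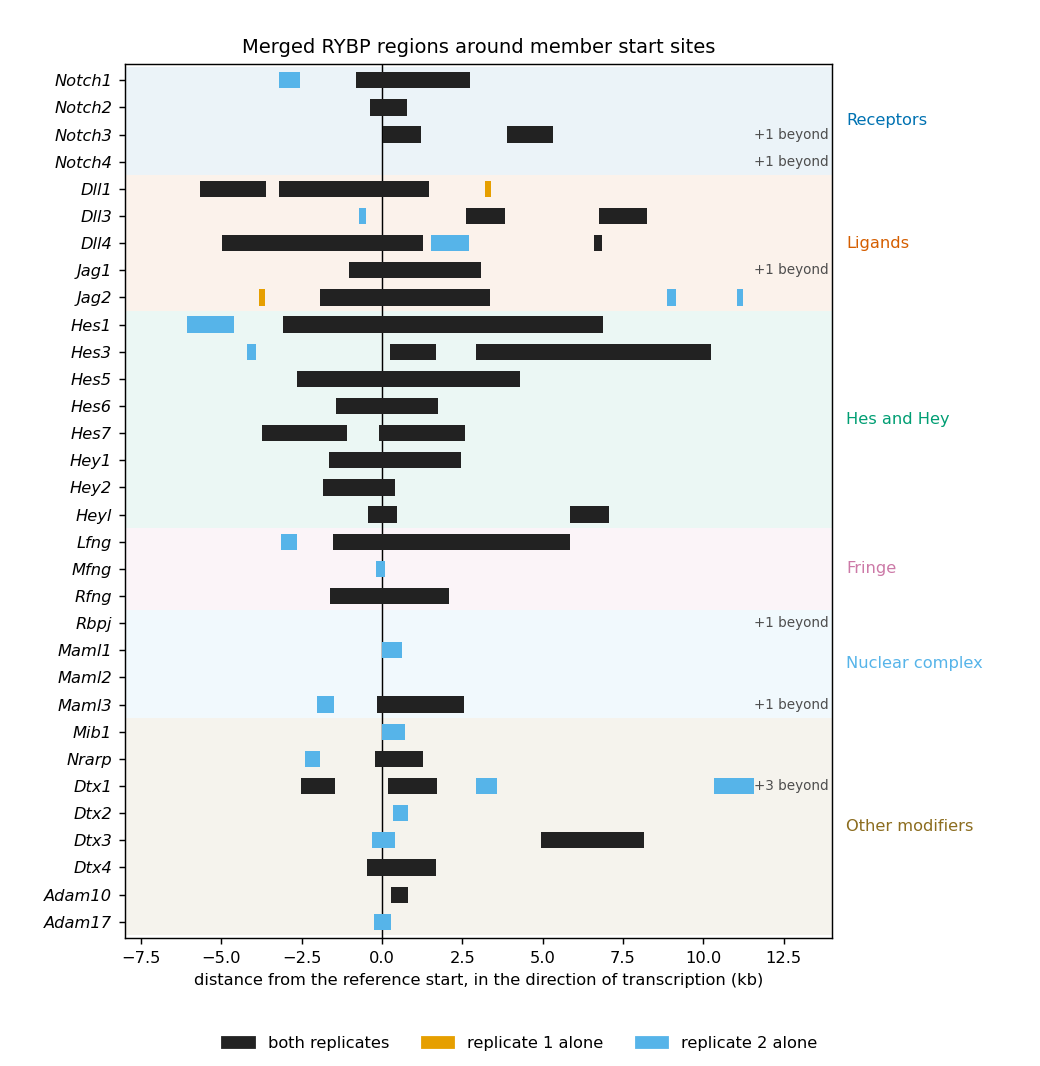
Merged RYBP regions of the 32 members, drawn by distance in kb from the reference start of each gene in the direction of transcription, with members grouped by role. Dark bars are regions of both replicates, orange bars replicate 1 alone and blue bars replicate 2 alone, and regions beyond the right edge are counted in the plot. All 8 Hes and Hey genes carry dark bars, Maml2 is empty, and Mfng, Maml1, Mib1, Dtx2 and Adam17 carry a blue bar alone.

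The merged regions at the members numbered 60. Of these, 35 were found in both replicates (58.3%), 6 in replicate 1 alone and 19 in replicate 2 alone. At start windows lay 36 regions, of which 26 were of both replicates, and away from them lay 24, of which 9 were of both. Regions of both replicates had a median width of 2329 bp at members, beside 1420 bp over all merged regions of both replicates. In CpG density they had a median of 5.38 per 100 bp, against 2.10 for member regions of a single replicate. Over all merged regions the medians were 6.02 and 2.08. Away from starts the same order was seen, with 3.33 to 7.43 and a median of 4.81 in the 9 regions of both replicates and 0 to 4.90 with a median of 1.53 in the other 15. Regions of both replicates were thus the more CpG-dense of the member regions on the median, although the ranges overlapped.

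Among the ligands, all 5 had a region of both replicates at the locus and 4 had one at the start. Fold enrichment at the start was 4.64 in replicate 1 and 6.09 in replicate 2 at Jag2, 4.49 and 4.63 at Jag1, 4.67 and 4.40 at Dll4, the arterial ligand, and 4.0 and 6.48 at Dll1, the activating ligand of somite boundaries. The SD between the replicates (n = 2) was 0.103 at Jag1 and 0.195 at Dll4, against 1.03 at Jag2 and 1.75 at Dll1, where replicate 2 was higher. The medians of these 4 genes were 4.56 and 5.36, beside 3.57 and 4.10 over the 8340 genes with a start peak in each replicate.

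At Dll4 the region ran over 6243 bp (chr2:119146549-119152791), from 4971 bp upstream of the start to exon 2, and it also held the start of the noncoding gene Gm14207. At Dll1 it ran over 4673 bp (chr17:15511479-15516151) and also held the start of the noncoding gene A930024N18Rik. Another region of both replicates, 2071 bp wide, followed further upstream with fold enrichments of 3.38 and 3.94. At Jag2 the region was 5284 bp wide (chr12:114164355-114169638) and at Jag1 4113 bp (chr2:136939299-136943411), each covering the start and exons 1 to 2. These ligand regions thus extended to both sides of the start, and at Dll1 and Dll4 they leaned upstream of the reference start. A further RefSeq start of Dll1 lay upstream of its reference start within the region, so the lean there depends on the start used.

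Dll3 was arranged differently. This divergent ligand, which does not activate Notch in neighbouring cells, had only a 224 bp peak of replicate 2 near its start, with a fold enrichment of 3.66, and the nearest replicate 1 peak was 2720 bp from the start. Its regions of both replicates lay inside the gene, and that over exons 7 to 8, 6742 to 8249 bp from the start (chr7:29078555-29080062), had 3.55 in replicate 1 and 7.94 in replicate 2. That was the highest replicate 2 value at any ligand locus, but in replicate 1 it was below the 4 other ligands.

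Among the receptors, Notch1, Notch2 and Notch3 had a region of both replicates at the start. Notch1, which blood stem cell emergence is known to require, had 3.87 and 4.26 over a region of 3549 bp (chr2:26356607-26360155) that covered exons 1 to 2. Notch2 had 3.51 and 4.83 over 1141 bp, and Notch3 had 3.37 and 3.73 over 1187 bp that began 32 bp inside the gene. Receptor regions were narrower than those of the ligands on the median, at 1442 bp for the widest region of each gene against 4673 bp. The ranges overlapped, with 3549 bp at Notch1 and 1508 bp at Dll3.

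Notch4, the receptor of endothelium, had no region at its start and a CpG density of 1.20 per 100 bp around it. Its region of both replicates lay at the far end of the gene, 22242 to 23709 bp downstream of the start over exons 28 to 30 (chr17:34723455-34724922), with 2.74 and 3.69. That stretch held 7.43 CpG per 100 bp. Notch3 likewise had an intronic region of both replicates 3899 to 5313 bp from its start, with 3.52 and 3.14.

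The proteases that make the first activating cut, ADAM10 and ADAM17, are encoded by genes with narrow calls. Adam10 had 3.44 in replicate 1 and 6.49 in replicate 2 over a region of 532 bp in an intron, 281 to 812 bp from the reference start (chr9:70527085-70527616). In replicate 2 this was above 98.3% of genes with a start peak, and in replicate 1 above 44.2%. Adam17 had a replicate 2 peak of 538 bp over its start with 3.33, and the nearest replicate 1 peak was 43730 bp from the start.

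The Fringe enzymes add sugar to Notch receptors and alter which ligands they answer to. Lfng had 3.51 and 4.79 at the start under a region of 7369 bp (chr5:141081761-141089129), from 1534 bp upstream to exon 6. Rfng had 3.52 and 4.72 under 3690 bp, which also held the start of Gps1, so the peak cannot be given to either gene. Mfng had a replicate 2 peak of 287 bp with 2.98, and its nearest replicate 1 peak was 28348 bp from the start. By the widest region of each gene, the 3 genes of the family therefore ranged from among the widest of the members with a region to the narrowest.

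In the nuclear complex, Rbpj had 3.58 and 3.64 over a region of 2658 bp (chr5:53980209-53982866). That region did not lie at its most upstream annotated start, where CpG density was 1.40 per 100 bp, but 33191 to 35848 bp downstream of it over another annotated start in a stretch of 9.89 CpG per 100 bp. The RefSeq starts of Rbpj fall in that same stretch. Of the Mastermind coactivators, Maml3 had 3.71 and 4.32 over 2722 bp at its start, and Maml1 had a replicate 2 peak of 627 bp with 3.04 and its nearest replicate 1 peak 54395 bp from the start.

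Maml2 was the only member with no merged region, and the nearest peaks were 129307 bp (replicate 1) and 206509 bp (replicate 2) from its reference start. This absence is limited by the genome build. The gene is 89399 bp long in the mm9 annotation and 412973 bp in RefSeq, and the RefSeq promoter that was not found on a chromosome had 1 exact copy on an unplaced scaffold of mm9. The lists held 0 peaks on unplaced scaffolds, so the start of Maml2 that lies there could not be scored. The annotated mm9 start had 0.0999 CpG per 100 bp around it.

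**Figure D2:**
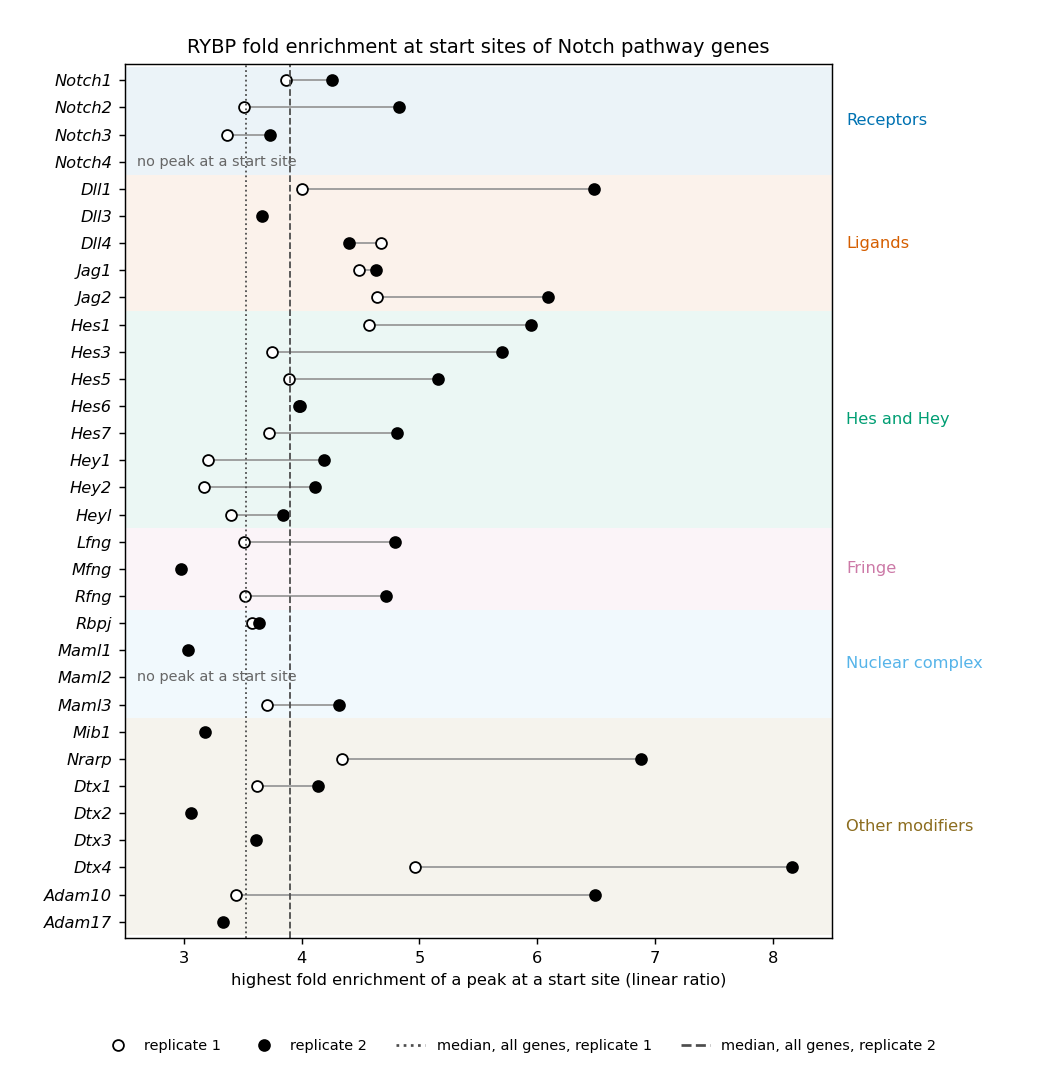
Highest fold enrichment of a peak within 2.5 kb of a start, as a linear ratio on the horizontal axis, for each member in replicate 1 (open circles) and replicate 2 (filled circles). The dotted and dashed lines are the medians over all genes with a start peak in replicate 1 (3.53) and in replicate 2 (3.90). Dtx4 has the highest value in both replicates, members with a filled circle alone have a replicate 2 peak only, and Notch4 and Maml2 have none.

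Each of the 8 Hes and Hey genes had a region of both replicates at a start, which held for no other of the 6 member classes. Their medians in fold enrichment were 3.73 in replicate 1 and 4.50 in replicate 2. Hes1, the most widely used Notch target, had 4.57 and 5.95, Hes6 had 3.99 and 3.98, Hes5 had 3.89 and 5.16, and Hes3 had 3.75 and 5.70. The Hey genes were lower, with 3.40 and 3.84 at Heyl, 3.21 and 4.19 at Hey1, and 3.17 and 4.11 at Hey2. By the highest start peak, the 3 Hey genes lay below all 5 Hes genes in replicate 1, and in replicate 2 they overlapped them through Hes6. The region over the Hes7 start itself had 3.80 in replicate 2, below the 3 Hey genes.

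The Hes1 region was the widest of all members. It ran over 9967 bp (chr16:30062341-30072307), from 3085 bp upstream of the start, across all 4 exons and 4425 bp past the end of the gene, and merged regions covered 81.8% of the Hes1 locus. Replicate 2 gave it as 1 peak of 9967 bp and replicate 1 as 2 peaks, of which the wider was 6229 bp. The region at Hes5 (chr4:154332402-154339333) was 6932 bp wide and covered the 3 exons, and it also held the start of Pank4, so its width belongs to both genes. At Hes3 a region of 7299 bp (chr4:151655548-151662846) covered the downstream annotated start and coding exons but extended 4533 bp past the 3′ end of the gene, so that less of it lay inside the gene than beyond. A separate region of 1426 bp lay in the intron just after the upstream start, with 3.68 and 3.11.

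Hes7, the oscillating repressor of the segmentation clock, had a pair of regions of both replicates. That at the start was 2677 bp wide (chr11:68933801-68936477) with 3.72 and 3.80, and it also held the start of the noncoding gene 9130213A22Rik. That upstream, 3727 to 1074 bp before the start, was 2654 bp wide with 3.68 and 4.81, so the highest replicate 2 value at Hes7 came from upstream. Hes6 lay almost whole under 3154 bp (chr1:93308063-93311216). Hey1 is a case where the replicates differed in extent, with 1 peak of 4102 bp in replicate 2 and 2 peaks of at most 660 bp in replicate 1. Heyl had a second region of both replicates in exon 2, with 3.55 and 4.46 against 3.40 and 3.84 at the start.

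Among the other modifiers, Dtx4 and Nrarp were among the 10 members with the highest smaller replicate value, Adam10 was high in replicate 2 as given above, and Mib1, Dtx2, Dtx3 and Adam17 had a start peak in replicate 2 alone. Dtx4, of the Deltex family of ubiquitin ligases that act on Notch, had 4.96 in replicate 1 and 8.16 in replicate 2, a mean of 6.56 ± 2.26 (SD, n = 2). These were the highest start values of any member in each replicate, above 95.8% and 99.8% of all genes with a start peak. The region was 2141 bp wide over exon 1 (chr19:12574819-12576959). Nrarp, a single-exon target that feeds back on the nuclear complex, had 4.34 and 6.88, or 5.61 ± 1.79 (SD, n = 2), over 1512 bp (chr2:25036055-25037566).

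Dtx1 had 3.62 and 4.14 at its start and the most regions of any member, 7 in all, of which 3 were of both replicates. Dtx2 had a replicate 2 peak of 468 bp with 3.06, and Mib1, the ubiquitin ligase that ligands need in the sending cell, had a replicate 2 peak of 701 bp with 3.18 that began 12 bp from its start. The nearest replicate 1 peaks were 28688 bp from the start of Dtx2 and 18881 bp from that of Mib1. At Dtx3 a replicate 2 peak of 732 bp with 3.61 lay over the start. Its region of both replicates, 3177 bp wide at the 3′ end of the gene, held the start of Arhgef25 and had 3.37 and 3.90, and within the Dtx3 locus only the replicate 2 part was present.

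Members found in a single replicate were all on the side of replicate 2. Mfng, Maml1, Mib1, Dtx2, Dtx3 and Adam17 had peaks of replicate 2 alone at the locus, and 0 members had peaks of replicate 1 alone. Over all genes, 2931 had replicate 2 alone and 760 had replicate 1 alone. In the 5 of these members other than Dtx3, the replicate 2 peak was at most 701 bp wide with a fold enrichment of 2.98 to 3.33, below the median of 3.90 over all genes with a start peak. Replicate 2 was the list with more peaks and the library with fewer mapped reads, and whether these sites differ between the differentiations was not tested.

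Where both replicates had a start peak, replicate 2 also had the larger values. It was higher in 21 of 23 members (91.3%), with Dll4 and Hes6 as the exceptions, and in 77.8% of all such genes. The ratio of replicate 2 to replicate 1 had a median of 1.30 over members, from 0.941 at Dll4 to 1.89 at Adam10, and 1.14 over all genes. Over these 23 members the replicates had a Spearman rho of 0.53, and over the 8340 genes 0.47. Peaks of a gene share its sequence and mappability in both libraries, so the rho is a description. Of the 23 members with a start peak in replicate 1, 15 were above the median of all genes with such a peak, and of the 30 with a start peak in replicate 2, 20 were.

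**Figure D3:**
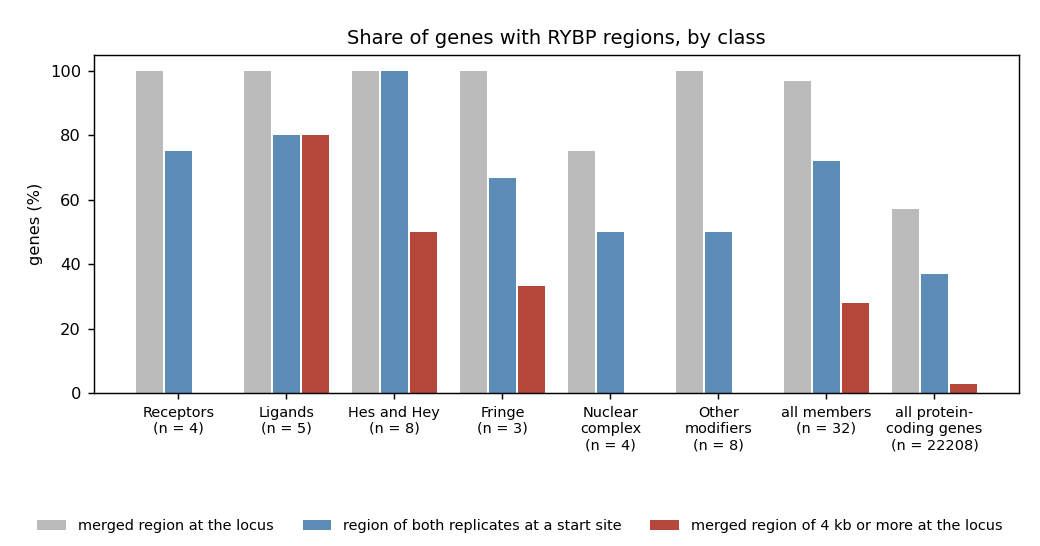
Share of genes in percent (vertical axis from 0) with a merged region at the locus (grey), a region of both replicates at a start (blue) and a merged region of 4 kb or more at the locus (red), for each class, for all members and for all protein-coding genes. Ligands and the Hes and Hey genes have the tallest red bars, at 4 of 5 and 4 of 8 genes, beside 2.88% over all genes, but the classes hold 3 to 8 genes.

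The classes were also compared by the width of their regions. A merged region of 4 kb or more was present at 9 members (28.1%), beside 2.88% of all protein-coding genes and 4.32% of those with a CpG-rich start. This limit was set after the widths had been seen, and a width counts the whole region, also where it leaves the locus. The 9 were Hes1, Lfng, Hes3, Hes5, Dll4, Jag2, Dll1, Jag1 and Hey1, that is, 4 of 5 ligands, 4 of 8 Hes and Hey genes and 1 of 3 Fringe genes, with 0 of the 4 receptors, 4 nuclear complex genes and 8 other modifiers. In the separate lists, 7 members had such a peak in replicate 1 (all genes 1.99%) and 7 in replicate 2 (all genes 1.80%). Hes1, Hes3, Hes5, Dll4 and Jag2 passed in both. Jag1 and Hey1 passed in replicate 2 alone, with 3809 and 660 bp in replicate 1, and Dll1 and Lfng in replicate 1 alone, with 2486 and 3077 bp in replicate 2.

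**Figure D4:**
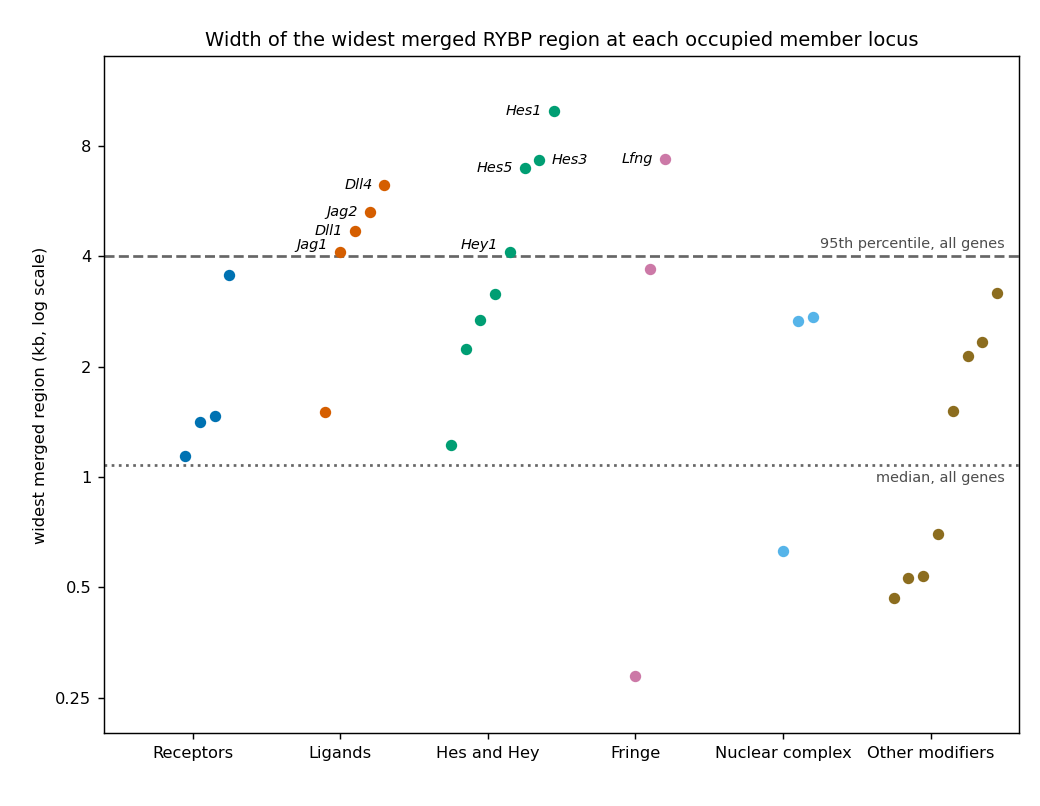
Width in kb, on a log axis, of the widest merged region at each member locus that has one, by class, with names for the 9 members of 4 kb or more. The dotted and dashed lines are the median (1079 bp) and the 95th percentile (4007 bp) over all protein-coding genes with a region, and 9 members lie above the upper line.

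The widest region had a median of 2658 bp over the 31 members that had one and of 1079 bp over all such genes. By class the medians were 4673 bp for ligands, 3690 bp for Fringe genes, 3628 bp for Hes and Hey genes, 2658 bp for the nuclear complex, 1442 bp for receptors and 1106 bp for the other modifiers. Dtx4 and Nrarp had the strongest start peaks among the modifiers at widths of 2141 and 1512 bp, whereas Lfng had 7369 bp at 3.51 and 4.79. Hes and Hey genes are short, with a median length of 3665 bp beside 15526 bp over all genes, and a region of a few kb covers most of such a gene.

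The other genes of the pathway were taken as a list of 51 that act on the same steps. Of these, 43 had a merged region at the locus (84.3%), beside 57.1% of all genes and 83.7% of those with a CpG-rich start. A region of both replicates at a start was present at 38 (74.5%), beside 36.8% and 58.0%. The start was CpG-rich in 45 of the 51 (88.2%), so the share with a merged region was near that of CpG-rich genes. A region of 4 kb or more was present at 3 (5.88%), beside 2.88% of all genes and 4.32% of CpG-rich genes. The last were Hes2, Helt and Bhlhe41, all from the 4 related helix-loop-helix repressors, each of which had a region of both replicates at its start. The genes with the highest start values by the smaller replicate were Hdac2, a histone deacetylase, with 5.55 and 5.90, Psen2, a catalytic subunit of gamma-secretase, with 4.85 and 4.85, Bhlhe41 with 4.57 and 6.08, and the Groucho corepressor Tle3 with 4.55 and 5.97. No region was present at Ncstn and Psenen of gamma-secretase, at the noncanonical ligands Cntn6 and Nov, or at the nuclear cofactors Kdm5a, Hdac1, Snw1 and Cir1. Apart from these repressors, none of the 51 genes had a region of 4 kb or more.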

How the data were processed

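RYBP ChIP-seq was labelled for 2 ChIP and 2 input samples of FLK1+ cells; inputs had no processed file and were not analysed here. The labels give day 3.75 and the study methods a slightly later day, and the series text names SCL where its title and antibody (anti DEDAF, another name of RYBP) name RYBP. The authors fixed chromatin with EGS and formaldehyde, aligned reads to mm9 with Bowtie 1.1.2b, removed duplicates and called broad peaks per replicate with MACS2 2.0.10 (versions from the submitters' processing notes), and merged the lists. The deposited lists give, per peak, fold enrichment (a linear ratio), −log10 p and −log10 q, and a score. The merged list gives positions. Alignment limits on multiple matches can lower peaks in repeats, and merging joins neighbouring genes.

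Overlaps of at least 1 bp were computed with Python 3.11.15, pandas 2.3.3 and pysam 0.24.0, after moving replicate 2 starts by 1 bp. The merged list equalled the union in 22409 of 22409 regions. Overlap counts were checked on simulated intervals. The lists carry no depth, no depth entered a value and no interval was computed. By the study's supplement, replicate 1 and its input had more mapped reads than replicate 2 and its input. Loci, start windows (2.5 kb), CpG limit and alternatives were as given in the text and closing section. Members and lists were chosen with earlier results of these data known, and no test was run. Most detail was given to the 10 members with the highest smaller replicate start value, those with no region and those with regions of 1 replicate alone, and, of further genes, to those with no region and the top 4.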

Additional observations from a re-analysis of the deposited data

How the results depend on the processing

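Counts of members stayed within 1.5 times under every alternative run. Class medians of fold enrichment moved by less than the SD between the replicate medians. For single replicates this was nearly fixed in advance, because each main median lay between the 2 replicate medians, so it does not show that the medians are stable. The count with a region of both replicates at the locus was lowest, 21 in place of 26, when each replicate had to cover 50% of the region, and at starts it was then 20 in place of 23. Requiring −log10 q of at least 2 left 27 of 31 members with a merged region. From a single replicate, 25 to 31 members had a peak at the locus, 23 to 30 at a start and 7 to 7 a peak of 4 kb or more. The width limit and its alternatives were chosen after seeing the data, with 13 members at 3 kb and 6 at 5 kb in place of 9. Median highest fold enrichment at the locus in a single replicate was 3.52 to 3.99 for receptors, 4.49 to 6.09 for ligands, 3.73 to 4.64 for Hes and Hey genes, 3.51 to 4.75 for Fringe genes, 3.65 to 3.98 for the nuclear complex and 3.98 to 6.69 for other modifiers. These medians use only genes with a locus peak in each replicate. Such genes were 2 of 3 Fringe genes, 2 of 4 nuclear complex genes and 4 of 8 other modifiers. Over the genes kept, the order of the classes differed between replicates. Other modifiers were below ligands in replicate 1 and above them in replicate 2. Fringe genes were the lowest class in replicate 1 but above receptors, the nuclear complex and Hes and Hey genes in replicate 2. The 4 modifiers left out had 3.06 to 3.90 in replicate 2, so modifiers stood above ligands there only among the genes kept. No paired analysis was possible because the only group with files is the RYBP ChIP group and no test was run. The peaks missing in replicate 1 are missing from the library with more mapped reads, and reads at these sites were not analysed here.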
